A study of Mus musculus with 18 samples.

Results

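Expression of the mouse Hox genes was read from 18 Affymetrix arrays, in 6 groups of 3, of a mammary carcinoma line of the mouse named NaF. All genes whose symbol names a member of the Hoxa, Hoxb, Hoxc or Hoxd cluster were taken, with 1 probe set per gene, which gave 36 of the 39 Hox genes of the reference annotation and 36 of 22180 genes measured. In 4 groups the cells had spent 48 hours in DMEM whose 10% FBS had been treated with charcoal, which takes lipid-soluble hormones and vitamins out of serum, and then 6 hours with all-trans retinoic acid at 1 µM, TTNPB at 1 µM, GW1516 at 1 µM or, in the controls, no ligand. In the other 2 groups the cells stayed in full medium (DMEM with 10% FBS) and received palmitate at 10 µM for 6 hours or, in the controls, no ligand. Retinoic acid is the natural ligand of the retinoic acid receptors (RARs), and TTNPB is a synthetic RAR agonist in which aromatic rings replace much of the polyene chain. GW1516 activates the fatty acid receptor PPARδ, and palmitate is a saturated fatty acid. All groups are 1 cell line, so the replicates carry no variation between animals, and the labels do not say whether they were separate cultures, so that the p-values cover array-to-array spread alone.

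Hox genes encode homeodomain transcription factors that lie in 4 clusters and set the identity of body segments along the head-to-tail axis. Genes at one end of a cluster, with low paralog numbers, are switched on early and far forward in the embryo, and those at the other end late and toward the tail. Retinoic acid switches on genes of low paralog number through RAR elements in and beside the clusters, Polycomb complexes keep the clusters silent, and trithorax proteins such as the MLL complexes keep them active. Hox proteins bind DNA with TALE homeodomain cofactors of the Pbx and Meis families. In the mammary gland several Hox genes are known to be expressed and to change in carcinoma.

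The measured members were 9 of 11 Hoxa genes (chromosome 6), 10 of 10 Hoxb genes (chromosome 11), 9 of 9 Hoxc genes (chromosome 15) and 8 of 9 Hoxd genes (chromosome 2). The other 3 were not analysed here. Because array values have no true zero, a member was set against background, the 95th percentile of the group means of 1088 Olfr genes. Olfr genes encode odorant receptors, which are read as a rule only in sensory neurons of the nose, so their values stand for the level of probe sets with little or no transcript. As a log2 value, background was 1.15 in the retinoic acid group, 1.29 in the TTNPB group, 1.30 in the GW1516 group and 1.32 in their charcoal controls. It was 0.636 with palmitate and 0.585 in full-medium controls. The arrays of the 2 media had distributions of their own, so no level in one medium is compared with a level in the other, and no probe set's level is ranked against another's.

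Promoter sequences of 5 Hoxa genes are shown, from the run above background in all groups and from Hoxa2 and Hoxa9 on either side of it. The split by position was not complete, as Hoxa10, beyond Hoxa9, was above background in 4 groups. They are the 250 bases before the annotated start, on the minus strand of RefSeq assembly GRCm38.p6, read 5′ to 3′, with each CpG, the dinucleotide that DNA methylation acts on, in capitals. RefSeq's promoter table held 24 entries for 22 Hox genes. Hoxa5 (chr6:52204588-52204837), Hoxa6 (chr6:52208673-52208922) and Hoxa7 (chr6:52218574-52218823) were above background in all 6 groups.
Hoxa5: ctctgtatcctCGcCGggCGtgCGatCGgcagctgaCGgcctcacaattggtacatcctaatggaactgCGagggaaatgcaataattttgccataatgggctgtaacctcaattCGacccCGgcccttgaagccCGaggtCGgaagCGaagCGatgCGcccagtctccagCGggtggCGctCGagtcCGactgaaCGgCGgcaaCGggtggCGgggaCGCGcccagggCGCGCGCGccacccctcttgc
Hoxa6: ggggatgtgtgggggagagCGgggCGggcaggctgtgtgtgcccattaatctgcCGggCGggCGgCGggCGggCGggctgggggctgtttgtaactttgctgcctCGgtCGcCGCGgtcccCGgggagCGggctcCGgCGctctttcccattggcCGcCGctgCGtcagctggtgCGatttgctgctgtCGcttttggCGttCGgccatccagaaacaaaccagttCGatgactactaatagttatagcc
Hoxa7: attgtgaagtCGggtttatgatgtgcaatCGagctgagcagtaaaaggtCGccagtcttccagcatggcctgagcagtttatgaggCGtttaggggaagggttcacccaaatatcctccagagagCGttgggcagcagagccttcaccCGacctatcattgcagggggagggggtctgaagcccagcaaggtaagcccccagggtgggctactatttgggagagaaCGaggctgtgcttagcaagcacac
Hoxa2 (chr6:52164832-52165081) and Hoxa9 (chr6:52227371-52227620), which lie on either side of the stretch above background, were above background in 0 of 6 groups.
Hoxa2: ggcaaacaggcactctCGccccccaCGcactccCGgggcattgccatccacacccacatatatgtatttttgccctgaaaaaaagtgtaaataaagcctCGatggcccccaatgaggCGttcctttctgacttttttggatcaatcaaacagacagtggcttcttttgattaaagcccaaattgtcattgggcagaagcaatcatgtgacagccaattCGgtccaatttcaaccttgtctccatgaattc
Hoxa9: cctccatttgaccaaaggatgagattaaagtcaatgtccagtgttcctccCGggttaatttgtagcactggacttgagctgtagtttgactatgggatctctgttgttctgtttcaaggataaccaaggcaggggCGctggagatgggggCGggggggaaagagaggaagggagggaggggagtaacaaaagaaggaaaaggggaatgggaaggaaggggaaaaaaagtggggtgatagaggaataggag
These windows held 28 CpGs in Hoxa5, 24 in Hoxa6 and 7 in Hoxa7, against 6 in Hoxa2 and 3 in Hoxa9. Hoxa4 had no entry. Of the Hoxa entries not printed, Hoxa3, above background in 5 groups, held 18, and the 2 of Hoxa10 held 20 and 7. The entry of Hoxa11, which was not analysed here, held 13. The Hoxa3 window (chr6:52213068-52213317) lies between those of Hoxa6 and Hoxa7, so its position is not that of Hoxa3 in the numbered order of the cluster. The median was 12.5 over the 24 Hox entries and 6 (quartiles 2 and 16) over 32851 promoters. Hoxa13, above background with retinoic acid alone and by 0.00 on the log2 scale, had 35 CpGs. The RAR half-site AGGTCA, searched on both strands, was found in 14% of all promoters and in 6 of 24 Hox entries, those of Hoxb4, Hoxc4, Hoxd3, Hoxd4, Hoxd8 and Hoxd10. The direct repeats AGGTCANNAGGTCA and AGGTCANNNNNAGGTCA, each in 0.00913% of promoters, were in none of the Hox windows; the known retinoic acid elements of the clusters may lie outside these windows. The Hox-Pbx motif TGATTNAT occurred in 2.82% of promoters and in 2 Hox windows, those of Hoxa2 and Hoxd11.

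Of the 5 Hox genes above background in all 6 groups, 4 were the neighbours Hoxa4, Hoxa5, Hoxa6 and Hoxa7, and the other was Hoxc10. They were also the 5 members above the same percentile on every one of the 18 arrays. Hoxa3 was above in 5 groups and Hoxa10 in the 4 charcoal groups, so that in charcoal serum the genes from Hoxa3 to Hoxa7, which are neighbours in the cluster, were all above, while Hoxa2 and Hoxa9 beside them were not. By group, 11 of 36 members (30.6%) were above background with retinoic acid, 9 (25%) with TTNPB, 7 (19.4%) with GW1516 and 9 (25%) in charcoal controls. In full medium 9 (25%) were above with palmitate and 11 (30.6%) in controls. Of all genes, 52.8% were above the same level in the retinoic acid group, 49.9% in the TTNPB group, 49.2% in the GW1516 group, 49.5% in charcoal controls, 44.5% with palmitate and 47.9% in full-medium controls; 5% of Olfr genes are above it by construction.

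Of the 9 Hoxa genes, 7 were above background with retinoic acid, 6 with TTNPB, 6 with GW1516 and 6 in charcoal controls, and 4 with palmitate and 5 in full-medium controls. Of the 10 Hoxb genes, 1 was above in every group but GW1516, where there was 0, and it was Hoxb5 each time. Of the 9 Hoxc genes, 1 to 2 were above in the charcoal groups, and 3 with palmitate and 3 in full-medium controls. Of the 8 Hoxd genes, 2 were above with retinoic acid, 0 with TTNPB, 0 with GW1516 and 1 in charcoal controls, and 1 with palmitate and 2 in full-medium controls. In all, 21 of the 36 members were at or under background in every group: Hoxa2, Hoxa9, 9 of 10 Hoxb genes, Hoxc5, Hoxc6, Hoxc8, Hoxc9, Hoxc11, Hoxc13 and Hoxd9 to Hoxd12. By paralog group, members above in all 6 groups belonged to groups 4, 5, 6, 7 and 10, with 1 member each. In charcoal controls the members nearest the threshold were Hoxd1 at 1.35 and Hoxb5 at 1.36 inside it, and Hoxa13 at 1.31 and Hoxb8 at 1.27 outside it.

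**Figure D1:**
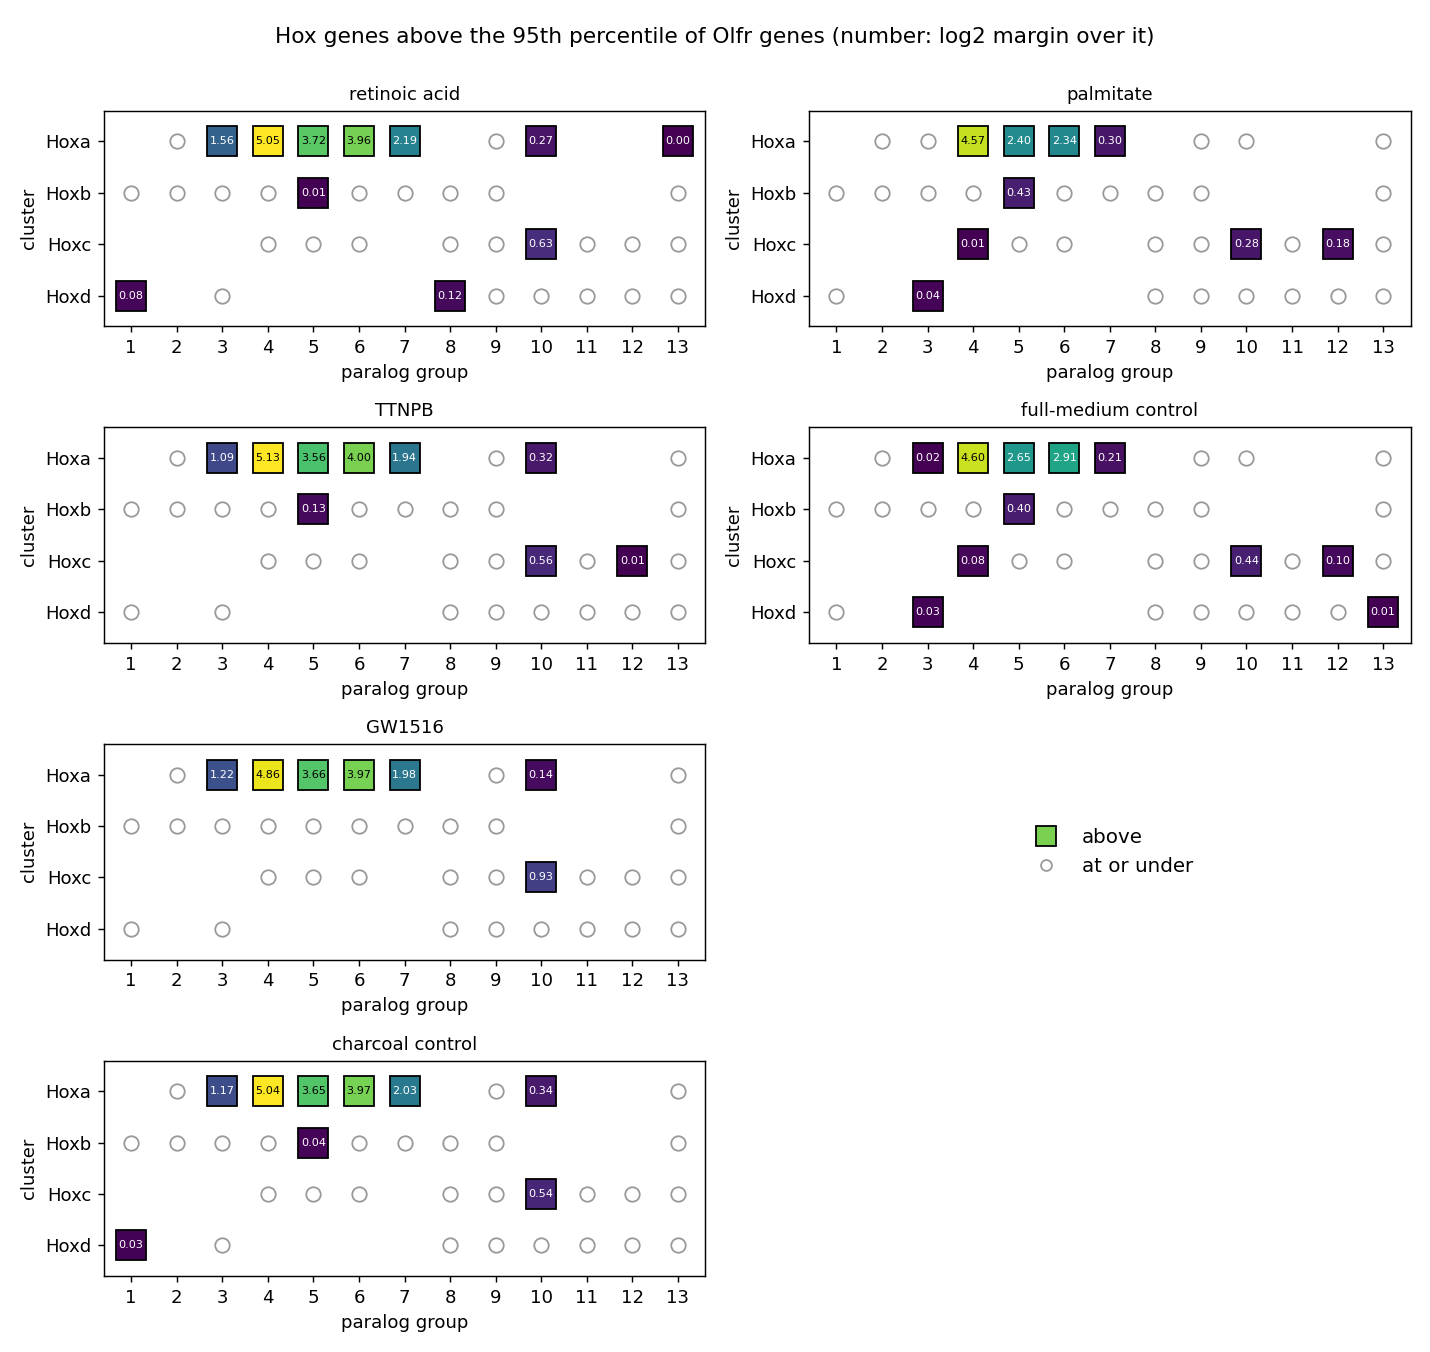
Map of the Hox clusters in each group of 3 arrays, with the paralog group on the x axis and the cluster on the y axis. A square marks a gene whose group mean was above the 95th percentile of Olfr genes, with its log2 margin over it printed and shown by colour; the run from Hoxa4 to Hoxa7 is filled in all 6 panels, with margins of 5.05 with retinoic acid and 5.04 in charcoal controls for Hoxa4.

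Hoxa4, which helps to pattern the neck vertebrae, measured 6.26, 6.22 and 6.13 with retinoic acid, 6.48, 6.23 and 6.57 with TTNPB, 6.22, 6.30 and 5.94 with GW1516, and 6.55, 6.10 and 6.42 in charcoal controls. In full medium it measured 5.27, 5.23 and 5.11 with palmitate and 5.24, 5.09 and 5.23 in controls. The groups of each medium overlapped, and none of the 1088 Olfr genes reached its group mean in any group.

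Hoxa5, needed in the embryo for the lung and known in breast cells as an activator of p53 expression, measured 4.87, 4.92 and 4.83 with retinoic acid, 4.82, 4.80 and 4.92 with TTNPB, 4.88, 5.11 and 4.88 with GW1516, and 4.93, 4.92 and 5.05 in charcoal controls. All 12 arrays lay within a narrow band. In full medium the values were 3.11, 2.90 and 3.08 with palmitate and 3.13, 3.41 and 3.17 in controls, so every palmitate array was under every control array.

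Hoxa6, a trunk member beside Hoxa5, measured 4.90, 5.40 and 5.05 with retinoic acid, 5.37, 5.15 and 5.36 with TTNPB, 5.26, 5.33 and 5.21 with GW1516, and 5.31, 5.04 and 5.50 in charcoal controls. These groups overlapped. With palmitate it measured 2.94, 2.69 and 3.29, against 3.50, 3.46 and 3.54 in full-medium controls, and the 2 groups did not overlap.

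Hoxa7, which patterns the thoracic vertebrae, measured 3.23, 3.35 and 3.46 with retinoic acid, 3.06, 3.18 and 3.44 with TTNPB, 3.52, 3.42 and 2.91 with GW1516, and 3.35, 3.06 and 3.62 in charcoal controls. In full medium it was near background, at 0.908, 0.879 and 1.03 with palmitate and at 0.848, 0.872 and 0.675 in controls; 10 Olfr genes reached its mean with palmitate and 14 in controls. Hoxa3, which acts in the pharyngeal arches, thymus and parathyroid, measured 2.98, 2.61 and 2.55 with retinoic acid, 2.22, 2.53 and 2.40 with TTNPB, 2.43, 2.51 and 2.62 with GW1516, and 2.28, 2.83 and 2.34 in charcoal controls. In full medium its values of 0.624, 0.576 and 0.593 with palmitate and 0.732, 0.624 and 0.457 in controls sat at the background itself.

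Hoxc10, a lumbar and hindlimb member, was the only gene outside Hoxa above background in all groups. It measured 1.52, 2.03 and 1.80 with retinoic acid, 1.83, 1.88 and 1.85 with TTNPB, 1.83, 2.04 and 2.80 with GW1516, and 1.83, 1.75 and 1.98 in charcoal controls. The third GW1516 array was the highest of the 12. In full medium it measured 0.778, 0.918 and 1.05 with palmitate and 0.991, 1.05 and 1.03 in controls. Hoxa10, which acts in the uterus and the lumbar spine, averaged 1.42 ± 0.13 with retinoic acid, 1.61 ± 0.12 with TTNPB, 1.44 ± 0.10 with GW1516 and 1.65 ± 0.19 in charcoal controls (SD, n = 3 each), and was under background in both full-medium groups.

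**Figure D2:**
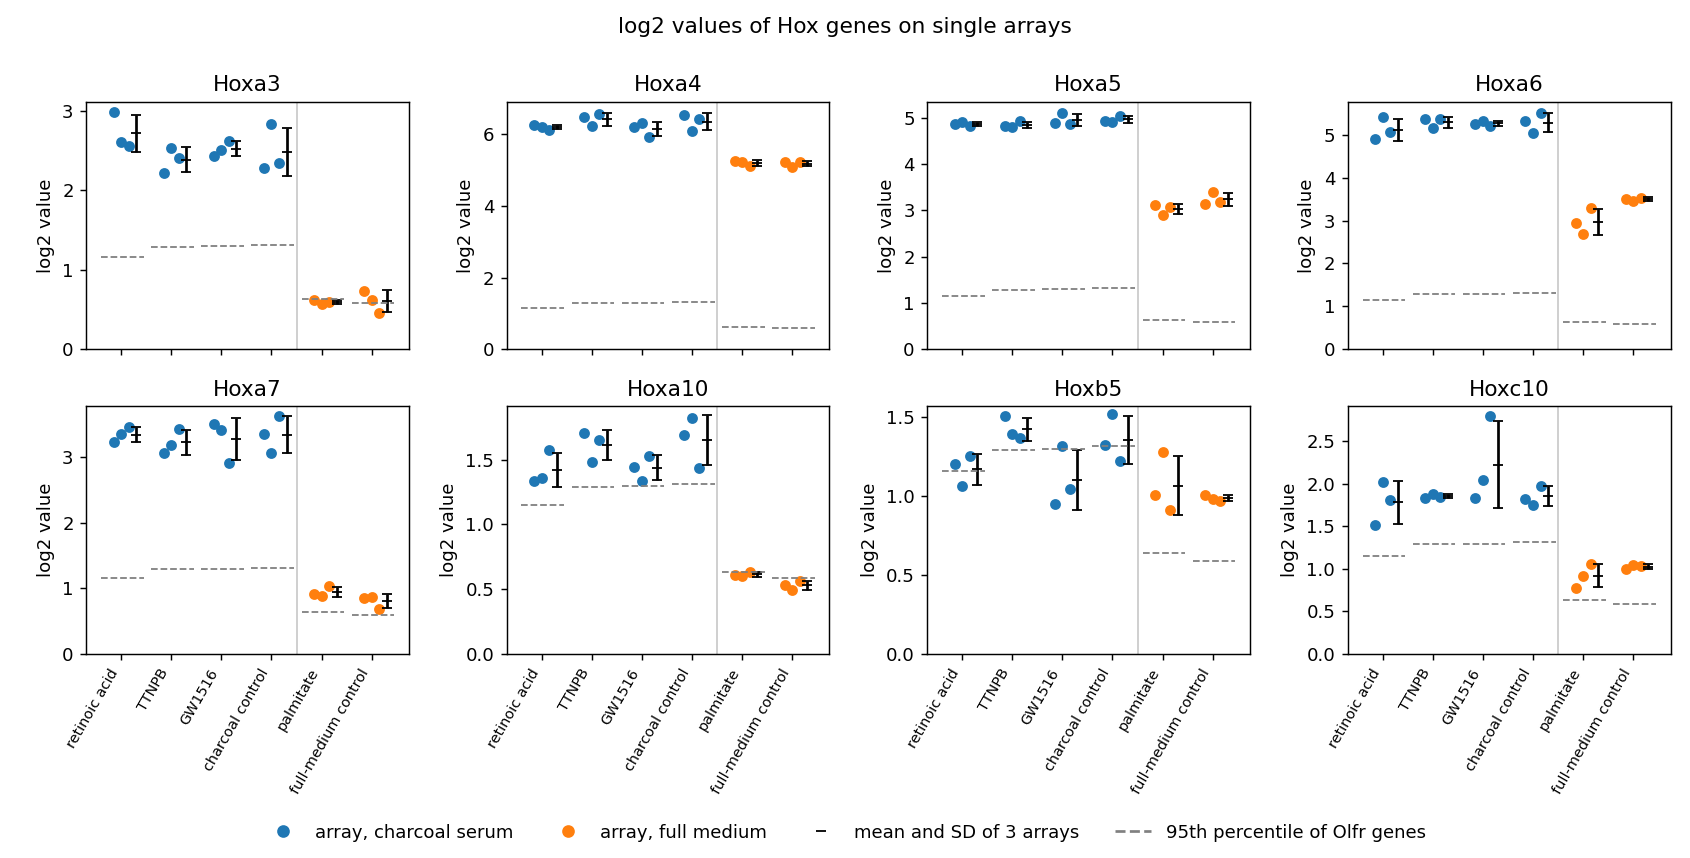
log2 values on single arrays (y axis) of 8 Hox genes by group (x axis), with the mean and SD of 3 arrays at the right of each group and background as a dashed line. Hoxa4, Hoxa5 and Hoxa6 stand far above background on all 18 arrays, Hoxa3 does so on the 12 charcoal-serum arrays only, and the palmitate arrays of Hoxa6 (2.94, 2.69 and 3.29) lie under the control arrays (3.50, 3.46 and 3.54).

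Other features of the clusters set limits on these levels. The RefSeq model of Hoxa3 overlaps Hoxa4, Hoxa5 and Hoxa6 and the antisense transcripts Hoxaas2 and Hoxaas3, of which Hoxaas3 also overlaps Hoxa5 and Hoxa6. Signal of the Hoxa3 probe set therefore cannot be assigned to Hoxa3 transcripts alone. Likewise, signal of the Hoxa4, Hoxa5 and Hoxa6 probe sets may include Hoxa3 transcripts, so these neighbours were not fully told apart. A further probe set, assigned to Hoxa3 together with another transcript, averaged 1.98 with retinoic acid, 2.10 with TTNPB, 2.06 with GW1516 and 2.12 in charcoal controls, and 0.679 with palmitate and 0.747 in full-medium controls, above background in all 6 groups. The second probe set of Hoxb5 was above background in 1 group. Of 19 non-Hox transcripts within the clusters, antisense RNAs and microRNA genes among them, 8 were measured, and 1, Hoxaas3, the antisense transcript over Hoxa5 and Hoxa6, was above background in all groups. Of 22 measured protein-coding genes next to the 4 clusters, 14 were above background in all groups, among them Skap2 and Hibadh, which flank Hoxa. By single group, 44.5% to 52.8% of all genes were above background, and the share above it in all 6 groups was not taken.

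No Hox gene passed the test with any ligand. In the limma fit over all 18 arrays, with p-values adjusted by the Benjamini-Hochberg method over 22180 genes and a threshold of 0.05, 0 of 36 members passed with retinoic acid against charcoal controls, where 5.29% of all genes passed. The count was also 0 with TTNPB (1.26% of all genes), with GW1516 (2.57%) and with palmitate against full-medium controls (0.681%). At the share of all genes, 1.91 of 36 members would have passed with retinoic acid and fewer with the other ligands, so counts of 0 do not set the Hox genes apart. At an unadjusted p of 0.05, 0 members passed with retinoic acid, 1 with TTNPB (Hoxb9), 2 with GW1516 (Hoxc5 and Hoxd1) and 1 with palmitate (Hoxa6), where the shares of all genes were 16.4%, 11.2%, 15.4% and 7%. Retinoic acid, TTNPB and GW1516 share the 3 charcoal controls.

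The intervals say how large a change could have been missed, given 1 limma spread per gene shared by all 18 arrays of both media. The spread could differ between media. Hoxa3 had an SD of 0.02 with palmitate and 0.30 in charcoal controls, while Hoxa6 had 0.30 and 0.23. Intervals from the charcoal-serum arrays alone may be wider for members such as Hoxa3 and are not given here. With retinoic acid, the 95% interval of each of the 36 members lay within 1.5-fold in either direction, and the same held for all 36 with TTNPB. With GW1516 it held for 35, Hoxc10 being the exception, and with palmitate for 35, Hoxa6 being the exception. The members' median log2 change was -0.08 with retinoic acid, 0.00 with TTNPB, -0.02 with GW1516 and -0.02 with palmitate, beside -0.03, 0.00, -0.01 and 0.00 over all genes. Of the 36, 10 had a positive change with retinoic acid, 18 with TTNPB, 16 with GW1516 and 13 with palmitate. A probe set at background measures little of its transcript. Where a member was at or under background in both groups compared, its interval therefore describes the probe set rather than the gene. That holds in every comparison for the 21 members never above background, and in some for others, such as Hoxc4 and Hoxd3 with retinoic acid.

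Arrays of the 2 groups did not overlap for 2 members with retinoic acid (Hoxa5 and Hoxc4), against 24.1% of all genes. The count was 2 with TTNPB (Hoxa13 and Hoxb7, against 17.9%), 3 with GW1516 (Hoxc5, Hoxd10 and Hoxd13, against 16.3%) and 4 with palmitate (Hoxa5, Hoxa6, Hoxa7 and Hoxa10, against 15.2%). Of the palmitate group, Hoxa5 and Hoxa6 were lower on every palmitate array, and Hoxa7 and Hoxa10 were higher.

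**Figure D3:**
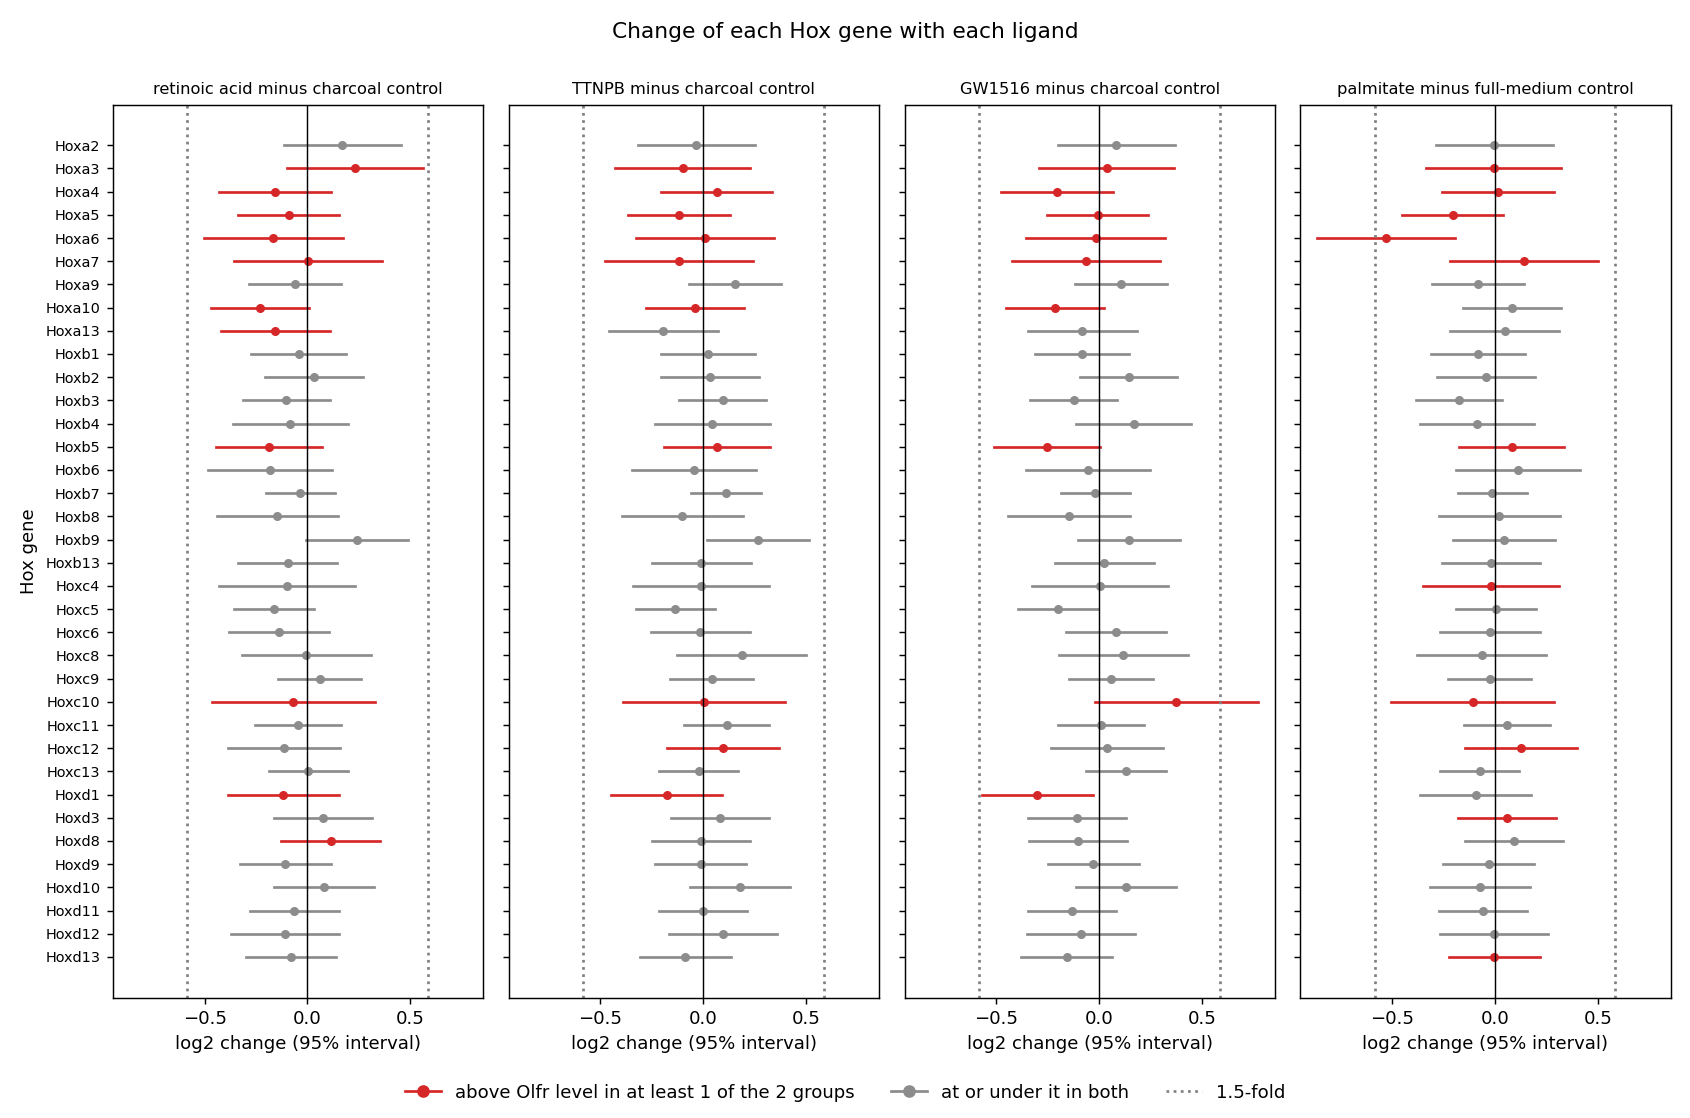
log2 change (x axis) with its 95% interval from the limma fit for each of the 36 Hox genes (y axis) with each ligand, in cluster order; red marks genes above background in at least 1 of the 2 groups, and dotted lines mark 1.5-fold. All intervals stay inside the dotted lines with retinoic acid and TTNPB, Hoxc10 crosses the line with GW1516, and Hoxa6 crosses it with palmitate (-0.53 on the log2 scale).

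Of the members known to respond to RAR ligands in embryos or embryonal carcinoma cells, Hoxa4, Hoxa5, Hoxb1, Hoxb4 and Hoxb5 were measured. Hoxa4 differed from charcoal controls by -0.16 on the log2 scale with retinoic acid (95% interval -0.43 to 0.11) and by 0.06 with TTNPB (-0.21 to 0.34). Hoxa5 differed by -0.09 with retinoic acid (-0.34 to 0.15) and by -0.12 with TTNPB (-0.36 to 0.13). These 2 genes were well above background, and any rise of 1.5-fold lay outside their intervals.

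Hoxb1, which patterns the hindbrain and is a direct RAR target, was under background, at 0.791, 0.917 and 0.963 with retinoic acid, 1.17, 0.764 and 0.942 with TTNPB, and 0.949, 1.06 and 0.792 in charcoal controls. Hoxb4 was likewise under background, at 0.790, 1.01 and 1.04 with retinoic acid, 1.32, 0.998 and 0.903 with TTNPB, and 0.951, 1.33 and 0.810 in charcoal controls. Hoxb5 lay at background, at 1.20, 1.06 and 1.25 with retinoic acid, 1.502, 1.392 and 1.367 with TTNPB, and 1.32, 1.52 and 1.22 in charcoal controls. For all 3 genes the retinoic acid arrays overlapped the charcoal controls, and so did the TTNPB arrays, while the retinoic acid arrays of Hoxb5 lay under its TTNPB arrays. The changes with retinoic acid were -0.04 for Hoxb1, -0.08 for Hoxb4 and -0.19 for Hoxb5. Hoxb9 had the lowest adjusted p of the 36 with both RAR ligands, at a change of 0.24 with retinoic acid (adjusted p = 0.321 in limma) and 0.27 with TTNPB (adjusted p = 0.39), and was under background in every group.

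Known RAR-regulated genes outside the clusters rose with retinoic acid on the same arrays. Cyp26b1, an enzyme that breaks down retinoic acid, measured 6.21, 6.06 and 5.83 with retinoic acid, against 3.41, 3.10 and 3.71 in charcoal controls, which is 6.15-fold (log2 change 2.62, SE 0.17, adjusted p = 4.88e-08 in limma). Rarb, the RARβ gene and a direct target of RARs, measured 4.28, 4.07 and 4.21 with retinoic acid, against 3.37, 2.77 and 2.89 in charcoal controls, which is 2.26-fold (adjusted p = 0.000448). The arrays of the 2 groups did not overlap for either gene. Cyp26b1 was also higher with retinoic acid than with TTNPB, where it measured 4.15, 3.64 and 4.25 (log2 difference 2.02, adjusted p = 1.13e-05), so the RAR ligands differed at this gene. The Hox changes with retinoic acid ran from -0.23 (Hoxa10) to 0.24 (Hoxb9) on the same log2 scale.

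Retinoic acid and TTNPB were compared directly at 1 µM and 6 hours, and retinoic acid was also compared with GW1516, which makes 2 pairs of compounds over the 36 members. In limma, 0 members passed between retinoic acid and TTNPB (0.153% of all genes did) and 0 between retinoic acid and GW1516 (0.352%). At an unadjusted p of 0.05, 1 member passed in each pair. Hoxa3 was higher with retinoic acid than with TTNPB by 0.33 on the log2 scale (95% interval 0.00 to 0.66, adjusted p = 0.684), and the 2 groups did not overlap. Hoxc10 was lower with retinoic acid than with GW1516, by -0.44 (-0.84 to -0.05, adjusted p = 0.484), and by -0.16 without the third GW1516 array. The intervals lay within 1.5-fold for 35 members in each pair, all but Hoxa3 and all but Hoxc10. Groups did not overlap for 4 members between retinoic acid and TTNPB (Hoxa3, Hoxa9, Hoxb5 and Hoxc8, against 16.2% of all genes) and for 1 between retinoic acid and GW1516 (Hoxb4, against 11.9%).

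With GW1516, Hoxc10 differed most, by 0.38 on the log2 scale (-0.02 to 0.77, adjusted p = 0.353 in limma). Without the third GW1516 array it differed by 0.09 (adjusted p = 0.795). That array stood apart from its group: it lay 0.231 log2 units from its group mean on average, against 0.0816 to 0.145 for the other 17 arrays, and its Olfr median was 1.01 against 0.689 and 0.722 on the other GW1516 arrays. On it 26 of 36 Hox genes were above their group mean, and on retinoic acid replicate 3 28 were. Hoxd1 was lower, by -0.30 (-0.57 to -0.03, adjusted p = 0.259) and by -0.36 without that array.

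With palmitate, Hoxa6 had the largest difference of the 36, at -0.53 on the log2 scale (SE 0.16, 95% interval -0.86 to -0.19, adjusted p = 0.216 in limma). The means were 2.97 ± 0.30 with palmitate and 3.50 ± 0.04 in full-medium controls (SD, n = 3 each). Without palmitate replicate 2, the lowest array, it was -0.39 (adjusted p = 0.738), and without replicate 3 it was -0.69 (adjusted p = 0.0816); quantile normalization of all arrays gave -0.33 (adjusted p = 0.335). Its neighbours differed by -0.21 for Hoxa5 (-0.45 to 0.04), 0.02 for Hoxa4 (-0.26 to 0.29) and 0.14 for Hoxa7 (-0.22 to 0.50).

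The proteins that act with and on Hox genes were read from lists chosen with earlier results of these data known. Of 10 TALE cofactors 9 were measured, and 6 were above background in all groups: Pbx2, Pbx3, Meis2, Meis3, Pknox1 and Tgif1. None passed in any of the 6 comparisons in limma, with 1 to 3 at an unadjusted p of 0.05 in each. Over all genes the share at that unadjusted p ran from 7% (palmitate) to 16.4% (retinoic acid). Meis2 came nearest with GW1516, at 1.25, 1.35 and 1.38, against 1.99, 2.14 and 1.76 in charcoal controls, and at an adjusted p of 0.0546 it did not pass. Of 11 other homeobox genes of the body axis, 0 passed in any comparison, 0 did so at an unadjusted p of 0.05, and 1, Gsx2, was above background in all groups.

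Of 26 listed Polycomb genes 23 were measured, and 4 of them, Jarid2, Rnf2, Phc3 and Suz12, rose in limma both with retinoic acid and with GW1516. Beside them, 5.29% of all genes passed in either direction with retinoic acid and 2.57% with GW1516. Of the 23, 19 were above background in all groups, and 0 passed with TTNPB (8 at an unadjusted p of 0.05) and 0 with palmitate (4). At that unadjusted p, 11.2% of all genes passed with TTNPB and 7% with palmitate. Jarid2, a subunit that guides Polycomb complex PRC2 to its sites, measured 7.65, 7.72 and 7.54 with retinoic acid and 7.52, 7.49 and 7.82 with GW1516, against 6.84, 7.03 and 6.91 in charcoal controls. It was 0.71 higher with retinoic acid (adjusted p = 0.00173) and 0.69 higher with GW1516 (adjusted p = 0.00531) on the log2 scale, with no overlap. Rnf2, the ubiquitin ligase of PRC1, rose by 0.61 with retinoic acid and 0.47 with GW1516, Phc3, a PRC1 scaffold, by 0.60 and 0.52, and Suz12, a PRC2 core subunit, by 0.48 and 0.65. The members' median log2 change was 0.12 with retinoic acid and 0.17 with GW1516, beside -0.03 and -0.01 over all genes. Between retinoic acid and TTNPB, 0 of the 23 passed, so a difference between the RAR ligands was not shown. At an unadjusted p of 0.05, 3 of them did, beside 7.27% of all genes. With every array centred on its median, Jarid2, Rnf2 and Phc3 still passed with retinoic acid and Suz12 did not (adjusted p = 0.0946), while with GW1516 Jarid2 alone of the 4 passed. After quantile normalization of all arrays Phc3 lost its call with retinoic acid (adjusted p = 0.0631 in limma). With GW1516 it lost its call after quantile normalization of all arrays and within each medium. Jarid2, Rnf2 and Suz12 kept their calls under both. Fitted on only the GW1516 and charcoal control arrays, none of the 4 passed with GW1516 (adjusted p from 0.211 for Jarid2 to 0.359 for Phc3), and 3 of 22180 genes did. Suz12 lost its call with retinoic acid without any 1 of the retinoic acid arrays or of charcoal replicates 2 and 3 (highest adjusted p = 0.207 over 21 alternatives). With GW1516, Suz12 lost it without charcoal replicate 2 (highest 0.289), Phc3 without GW1516 replicate 3 or charcoal replicate 2 (highest 0.359), and Rnf2 without GW1516 replicate 1 or 2 or any charcoal control (highest 0.303).

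Of 17 trithorax and elongation genes 16 were measured. The shares of all genes that passed were 5.29% with retinoic acid, 1.26% with TTNPB, 2.57% with GW1516 and 0.681% with palmitate. Aff4, a scaffold of the super elongation complex, was 0.83 higher with retinoic acid (adjusted p = 0.00167 in limma) and 0.55 higher with GW1516 (adjusted p = 0.0451). Mllt1, another elongation factor that binds acetylated histones, was lower with retinoic acid by -0.45, with TTNPB by -0.40 and with GW1516 by -0.48, and these were the trithorax list's only calls against charcoal controls. Aff4 lost its call with GW1516 without replicate 1 or 2 of GW1516 or any charcoal control (highest adjusted p over all 21 alternatives = 0.305), and Mllt1 lost its call with TTNPB without replicate 1 of either group (highest over all alternatives 0.24). With arrays centred on their medians Mllt1 passed with none of the 3 ligands (adjusted p = 0.105 with retinoic acid and 0.24 with TTNPB), and Aff4 did not pass with GW1516. Fitted on only the GW1516 and charcoal control arrays, neither Aff4 nor Mllt1 passed. With palmitate, Kmt2a, the MLL1 methyltransferase that keeps Hox genes active, fell to 2.17, 1.96 and 2.23, against 3.16, 3.12 and 2.62 in full-medium controls. Its log2 change was -0.85 (95% interval -1.13 to -0.56, adjusted p = 0.00494), and the groups did not overlap. It lost the call when the fit held only the palmitate and control arrays or when arrays were centred on their medians. Without the 12 charcoal arrays 1 of 22180 genes passed in that comparison.

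**Figure D4:**
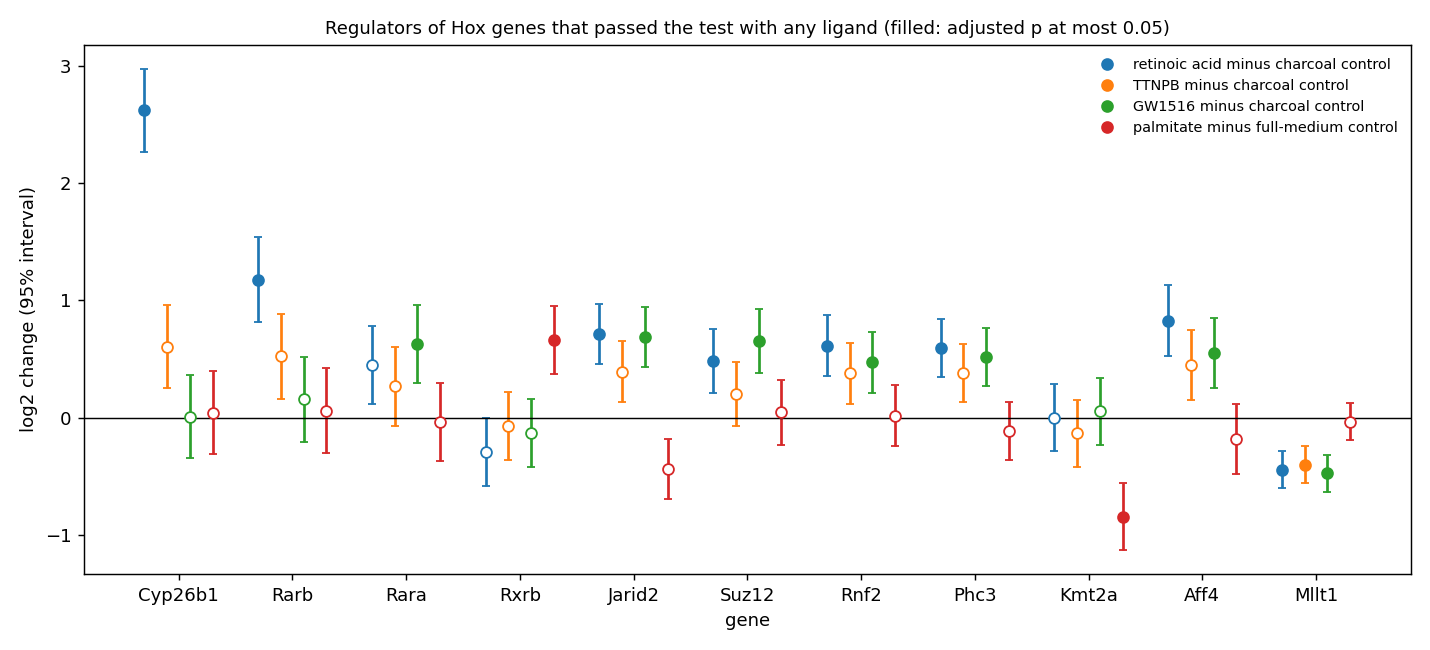
log2 change (y axis) with its 95% interval for the listed regulators of Hox genes (x axis) that passed in at least 1 ligand comparison; colours mark the ligands and filled points an adjusted p of at most 0.05. Cyp26b1 (2.62) and Rarb (1.18) stand apart with retinoic acid, and Kmt2a (-0.85) falls with palmitate.

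Of 16 upstream regulators 15 were measured. Over all genes, 5.29% passed with retinoic acid, 1.26% with TTNPB, 2.57% with GW1516 and 0.681% with palmitate. At an unadjusted p of 0.05, 11.2% of all genes passed with TTNPB. With retinoic acid 2 passed, Cyp26b1 and Rarb, with TTNPB 0 (4 at an unadjusted p of 0.05), with GW1516 Rara, the RARα gene (0.63, adjusted p = 0.0424 in limma), and with palmitate Rxrb, an RXR partner of RARs (0.66, adjusted p = 0.0309). The Rara call was lost without GW1516 replicate 1 or 3 or any charcoal control (highest adjusted p over all 21 alternatives = 0.333), and the Rxrb call without any palmitate array or control replicate 2 or 3 (highest 0.201), and both were lost with arrays centred on their medians or with only the 2 groups in the fit. Cdx2, Cdx4 and Cyp26a1 were under background in both controls. Of the 22 measured genes beside the clusters, Calcoco1, a nuclear receptor coactivator next to Hoxc, was higher with retinoic acid by 0.41, with TTNPB by 0.57 and with GW1516 by 0.48, and Tax1bp1, Atf7 and Hnrnpa3 were higher with GW1516. On the third GW1516 array Tax1bp1 was 7.46, against 6.91 and 6.80 on the other arrays of that group and 6.28, 6.29 and 6.34 in charcoal controls, and without it the call was lost for Tax1bp1 and Hnrnpa3. Calls of these neighbours were also lost without other single arrays, charcoal controls among them, while Calcoco1 with TTNPB lost its call without 1 single array, TTNPB replicate 1. With arrays centred on their medians Calcoco1 passed with none of the 3 ligands, and Atf7 and Hnrnpa3 did not pass with GW1516. Over all 21 alternatives the highest adjusted p of Calcoco1 in limma was 0.147 with retinoic acid, 0.102 with TTNPB and 0.273 with GW1516. Fitted on only the GW1516 and charcoal control arrays none of the 4 neighbours passed with GW1516.

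The label of a mammary carcinoma line was set against marker genes. Of 9 measured luminal markers, Krt8, Krt18, Cdh1 and Cldn3 were above background in all groups, and Elf5, Esr1 and Cldn7 were under it in both controls. Of 6 basal and 4 adipocyte markers, 0 were above in all groups. Of 8 fibroblast, 6 immune and 5 endothelial markers, 1 each was: Pdgfra, Cd68 and Cdh5. Cdh5 stood far above background. Summed before taking log2, the 5 endothelial markers reached 8.82 to 9.01 in charcoal controls, where background was 1.32. Pecam1, Kdr, Tek and Vwf were under background in both controls. The reason for the Cdh5 signal was not tested.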

How the data were processed

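RNA of 18 samples, extracted with Qiazol and cleaned on RNeasy columns, was labelled as biotinylated cRNA by the Affymetrix IVT protocol, per the labels. The authors deposited log2 values of 41345 probe sets on each array; the log2 scale was inferred from their range. The submitters' processing notes name Partek, and the background correction and normalization are not given in the sources used here. Array medians lay between 1.06 and 1.32 on 12 charcoal-serum arrays and between 0.473 and 0.548 on 6 full-medium arrays, so the media may have been scaled apart. Array values carry no counting depth, and the number of arrays limits the precision.

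Of the probe sets, 23521 carried 1 gene symbol, 1814 several and 16010 none, and 23328 took their present symbol from RefSeq by Entrez number. Probe sets with 1 symbol were used, and for the 1082 genes with several such sets that of highest overall mean. All 18 arrays entered 1 fit in limma 3.58.1 under R 4.3.3 (lmFit, eBayes with an intensity trend, 12 residual degrees of freedom, 2-sided), a test also run on simulated data. No filter on signal was used. Members and lists were chosen with earlier results of these data known. Named with values were members called in any comparison, members above background in all groups, known RAR-responsive members and those nearest the threshold, and of each list the genes past the threshold with the largest changes; Hoxa3, Hoxa10, Hoxb9, Hoxd1 and Meis2 were named after their values were seen. Same-numbered replicates did not deviate together (correlations from -0.28 to 0.21), so they were not treated as pairs. Alternatives covered normalization, filters, variance models, thresholds, the background percentile and leaving out each replicate.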

Additional observations from a re-analysis of the deposited data

How the results depend on the processing

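The count of Hox genes called was 0 in all 6 comparisons under all 126 alternatives (21 per comparison), leave-one-out settings included; the lowest adjusted p of any member was 0.0675 (Hoxa6, palmitate, array weights), and 98 of 1614 values of 13 named members turned sign without passing. With a replicate block, which the data did not support as pairing, 1031 genes were called with retinoic acid and 0 Hox genes in any comparison. Members above background numbered 19, 15, 12, 15, 14 and 18 (retinoic acid, TTNPB, GW1516, charcoal control, palmitate, full-medium control) at the 90th percentile of Olfr genes. At the 99th they numbered 6 with retinoic acid and 5 in full-medium controls, and with every array above its own percentile 7 and 6. Leaving out 1 replicate gave 9 to 11 members with retinoic acid, 8 to 9 with TTNPB, 7 to 8 with GW1516, 9 to 10 in charcoal controls, 9 to 10 with palmitate and 7 to 11 in full-medium controls (7 without replicate 2). Hoxa4, Hoxa5, Hoxa6 and Hoxc10 were above in all 54 combinations of group and setting; Hoxa7 was not above the 99th percentile in full-medium controls.

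The number of all genes called moved more. It is given for retinoic acid, TTNPB, GW1516, palmitate, retinoic acid against TTNPB and retinoic acid against GW1516, in that order: 1174, 279, 570, 151, 34 and 78 as reported, 518, 93, 162, 55, 15 and 30 at an adjusted p of 0.01, 2014, 622, 1122, 661, 136 and 195 with array weights, 749, 84, 266, 17, 19 and 29 with arrays centred on their medians, and 1852, 498, 3, 1, 249 and 2 with only the groups compared. A fold of 1.5 left 706, 164, 356 and 86 with the 4 ligands. Without dim genes the counts were 454 with TTNPB, 872 with GW1516, 228 with palmitate and 118 for retinoic acid against GW1516; quantile normalization of all arrays gave 545 with TTNPB and 127 for retinoic acid against GW1516, and within each medium 419 with TTNPB. With retinoic acid 848 of 1174 calls were rises, against 710 of 1360 after quantile normalization of all arrays. Leaving out 1 replicate gave 583 to 932, 112 to 170, 198 to 711, 62 to 141, 9 to 24 and 27 to 136. Chosen after seeing the data were fits of 1 medium only (palmitate 1, retinoic acid against GW1516 40) and fits without GW1516 replicate 3 and palmitate replicate 2 (2201, 972, 365, 178 and 142, GW1516 aside). Of 567 values of called list genes under alternatives, 435 kept the call, 132 lost it and 0 reversed; the cause was not tested.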

Other observations

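The microRNA host and antisense transcripts of the clusters were read at a few probe sets. Hoxaas3 measured 1.69, 2.44 and 1.58 with retinoic acid, 1.39, 1.28 and 2.04 with TTNPB, 1.40, 1.96 and 1.28 with GW1516, and 1.62, 1.14 and 1.60 in charcoal controls, with overlap between all groups. The precursor gene Mir196a-1, which lies between Hoxb9 and Hoxb13 and gives a microRNA that targets Hox messenger RNAs, measured 1.32, 1.55 and 1.56 with retinoic acid, 1.48, 1.46 and 1.58 with TTNPB, and 1.53, 1.58 and 1.34 with GW1516. Its charcoal controls measured 1.71, 2.21 and 1.57. The log2 differences were -0.36 with retinoic acid, -0.33 with TTNPB and -0.35 with GW1516, and none passed in limma (adjusted p = 0.197, 0.378 and 0.239). A probe set shared by Hoxa7 and the cluster transcript Mira averaged 1.78 with retinoic acid, 1.52 with TTNPB, 1.53 with GW1516 and 1.63 in charcoal controls, and 0.881 with palmitate and 0.992 in full-medium controls, above background in all 6 groups.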
